A study of Mus musculus with 4 samples.

Results

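The genes of DNA replication and S phase were read in 4 sorted populations of mouse CD4+ T cells. The list of 46 genes covers origin licensing, helicase activation, the polymerases, the sliding clamp and its loader, strand processing, nucleotide supply, chromatin assembly and the G1/S regulators. Members were found as the probe sets that the platform annotation maps to exactly 1 gene, where that gene is on the list. A probe set of its own was found for 45 of the 46 genes, among 18193 such genes on the array. Chaf1a had none and is only named. A gene counted as measured where a probe set of it reached an intensity of 32.5, the filter, on at least 1 array, and it was read from such a probe set with the highest mean level. All 45 were among the 9622 measured genes. Of these 45, 39 read at or over the filter on all 4 arrays. The other 6, Orc1, Exo1, Dtl, Ccne2, Gins2 and Tyms, were under it on some, Orc1 and Tyms on all but the CD25+ Foxp3- array.

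The animals were male Foxp3-GFP knock-in mice on a B6/129 F2 background, aged 5 to 8 weeks, and spleens and lymph nodes of 25 of them were pooled. Cells bearing CD8, B220, CD11b, NK1.1 or DX5 were removed, and the CD4+ rest was sorted by GFP, which reports the regulatory T cell factor Foxp3, and by surface CD25, a chain of the receptor for interleukin-2. This gave Foxp3+ cells with high CD25 (CD25hi Foxp3+) and low CD25 (CD25lo Foxp3+) and Foxp3- cells with CD25 (CD25+ Foxp3-) and without it (CD25- Foxp3-). RNA of each was hybridised to 1 Affymetrix Mouse Genome 430 2.0 array after 2 cycles of amplification in vitro. With 1 array a population there is no spread between replicates, so no difference below has a replicate check or a test, and "higher" or "lower" by the size rule means at least 2-fold.

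Before a cell copies its DNA, the origin recognition complex with Cdc6 and Cdt1 loads the ring of Mcm2 to Mcm7 onto origins, and this licensed ring becomes an active helicase when Cdc45 and the GINS complex join it in S phase. Polymerase alpha with primase then starts each strand, polymerases delta and epsilon extend it on the clamp Pcna, and nucleases and a ligase finish the lagging strand. Most of these genes are switched on at the end of G1 by E2F transcription factors. Resting T cells hold little of these products, and T cells driven to divide make them in quantity.

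Promoters of 4 members are shown because these members had the widest ranges over the 4 arrays among those that hold an E2F motif. Each is 300 bases long, 250 before and 50 after the annotated start in RefSeq, build GRCm38.p6, and is written 5′ to 3′ on the gene's strand. Capitals mark the match to the E2F letters searched, which were TTTCCCGC, TTTGGCGC, TTTCGCGC and TTTGCCGC on either strand. Dtl lies at chr1:191575495-191575794 on the minus strand, Uhrf1 at chr17:56304063-56304362, Cdc6 at chr11:98907901-98908200 and Orc1 at chr4:108579204-108579503, all 3 on the plus strand.
Dtl: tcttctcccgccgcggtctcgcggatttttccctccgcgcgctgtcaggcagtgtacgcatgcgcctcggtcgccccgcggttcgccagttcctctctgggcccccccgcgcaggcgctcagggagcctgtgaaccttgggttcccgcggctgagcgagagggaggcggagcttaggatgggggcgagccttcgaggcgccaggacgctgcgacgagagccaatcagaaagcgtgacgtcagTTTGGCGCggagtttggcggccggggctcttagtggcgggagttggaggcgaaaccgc
Uhrf1: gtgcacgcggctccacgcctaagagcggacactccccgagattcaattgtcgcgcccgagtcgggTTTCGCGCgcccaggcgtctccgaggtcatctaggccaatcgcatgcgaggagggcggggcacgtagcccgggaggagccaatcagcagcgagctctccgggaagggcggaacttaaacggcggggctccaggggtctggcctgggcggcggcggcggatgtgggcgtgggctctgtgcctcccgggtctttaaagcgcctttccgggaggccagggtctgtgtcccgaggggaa
Cdc6: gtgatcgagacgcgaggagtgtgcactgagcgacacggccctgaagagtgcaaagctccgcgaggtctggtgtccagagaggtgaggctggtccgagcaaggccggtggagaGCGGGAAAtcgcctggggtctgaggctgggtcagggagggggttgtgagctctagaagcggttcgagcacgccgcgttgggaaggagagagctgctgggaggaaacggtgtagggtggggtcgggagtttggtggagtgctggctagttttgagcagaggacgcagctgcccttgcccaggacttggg
Orc1: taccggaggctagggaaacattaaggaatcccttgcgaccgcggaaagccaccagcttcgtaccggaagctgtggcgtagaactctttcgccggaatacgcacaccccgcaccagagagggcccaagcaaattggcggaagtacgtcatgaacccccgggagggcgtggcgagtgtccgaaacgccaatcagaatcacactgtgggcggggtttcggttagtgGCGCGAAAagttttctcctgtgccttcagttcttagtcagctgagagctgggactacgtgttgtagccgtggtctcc
In Dtl the match TTTGGCGC begins 8 bases before the start, and in Uhrf1 the match TTTCGCGC begins 185 bases before it. Cdc6 and Orc1 hold their match on the other strand, where it reads GCGGGAAA and GCGCGAAA, beginning 138 and 27 bases before the start.

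The letters were found in 14 of the 37 members with a window in the promoter table, or 37.8%, where a gene with several windows counted if any held them. Mcm4, Gmnn, Gins1, Gins2, Prim2, Pole, Rfc2, Exo1 and Ccne2 had no window. The same letters stood in 2.6% of all 27025 genes with a window and in 5.02% of the 7895 measured ones. Besides the 4 printed, the 14 were the licensing genes Cdt1, Mcm3, Mcm5, Mcm6 and Mcm7, the polymerase genes Pola1, Pold1 and Pole2, and Lig1 and Rfc3. Of 21 mitosis genes with a window 1 held them, or 4.76%. The CCAAT letters, ATTGG on the other strand, stood in 22 of the 37 members (59.5%), in 17 of the 21 mitosis genes (81.0%) and in 41.1% of all genes. A match is a run of letters and not a measured binding site.

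Facts of the whole set of arrays bear on every value that follows. Medians of the 4 arrays lay between 15.03 and 15.6, and 39.7% to 40.3% of probe sets on each array reached the filter intensity of 32.5. Foxp3 read 1308 and 1117 in CD25hi and CD25lo Foxp3+ cells, against 16.8 in CD25+ and 17.6 in CD25- Foxp3- cells, and Il2ra, which encodes CD25, read 1562, 288, 283 and 22.3 in the same order. Of 15 listed housekeeping genes 12 were measured, and none was 2-fold apart in any comparison. CD4 T cell markers, 6 of 8 measured, summed to 32288 in CD25hi and 34955 in CD25lo Foxp3+ cells and to 19579 in CD25+ and 29993 in CD25- Foxp3- cells.

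Markers of other cells were read beside the replication genes. Each marker sum, also that of the CD4 T cell markers, ran over all listed markers with a probe set of their own, measured or not. Each marker was read from its probe set with the highest mean level, and readings at or under the floor were left out of the sum. CD8 T and NK cell markers, 7 of 8 measured, summed to an intensity of 396 in CD25hi Foxp3+, 340.5 in CD25lo Foxp3+ and 1166 in CD25+ Foxp3- cells, against 1439 in CD25- Foxp3- cells. B cell markers, 4 of 9 measured, summed to 127 in CD25hi Foxp3+, 200.4 in CD25lo Foxp3+ and 253 in CD25+ Foxp3- cells, against 290.1 in CD25- Foxp3- cells, with Cd79a, Pax5, Cr2 and Fcer2a under the filter on every array. Myeloid markers, 6 of 9 measured, summed to 576 in CD25hi Foxp3+, 1888 in CD25lo Foxp3+ and 749.6 in CD25+ Foxp3- cells, against 929 in CD25- Foxp3- cells. Neither the B cell nor the myeloid sum was highest in CD25+ Foxp3- cells. Of 8 B cell markers with a probe set, however, 4 were under the filter there, against 7 in CD25hi Foxp3+, 6 in CD25lo Foxp3+ and 6 in CD25- Foxp3- cells. Red cell precursor markers, 5 of 9 measured, summed to 1445 in CD25hi Foxp3+, 1173 in CD25lo Foxp3+ and 2448 in CD25+ Foxp3- cells, against 1895 in CD25- Foxp3- cells, most of it from the transferrin receptor gene Tfrc. Immature thymocyte markers, 2 of 5 measured, summed to 974 in CD25hi Foxp3+, 1431 in CD25lo Foxp3+ and 832 in CD25+ Foxp3- cells, against 1072 in CD25- Foxp3- cells, with Rag1, Rag2 and Ptcra under the filter throughout. Of 4 germinal centre B cell genes Bcl6 alone was measured, at 183 in CD25hi Foxp3+, 465 in CD25lo Foxp3+ and 476 in CD25+ Foxp3- cells, against 302 in CD25- Foxp3- cells. The part of these cells, and of the lower CD4 T cell marker sum of CD25+ Foxp3- cells, in the results was not tested. Single markers of other cells were nevertheless 2-fold higher in CD25+ against CD25- Foxp3- cells, namely Eomes at 411 against 106, Ncr1, Cd22, Blk and Adgre1.

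Nearly all replication genes were highest in CD25+ Foxp3- cells. This array gave the highest reading for 42 of the 45 members, where it was highest for 30.1% of all measured genes. Orc1 and Tyms were measured through this array alone, which fixed their place among the 42. It was highest for 40 of the 43 members without them, and for 36 of the 39 at or over the filter on all arrays. On the probe sets used, the exceptions were Rfc2, highest in CD25hi Foxp3+ cells, Rpa1, highest in CD25lo Foxp3+ cells, and Pole2, highest in CD25- Foxp3- cells. Their other measured probe sets were highest in CD25+ Foxp3- cells, that of Pole2 fixed by the filter. The lowest reading lay in CD25- Foxp3- cells for 32 members, against 28.4% of all genes, and in CD25lo Foxp3+ cells for 11, against 27.3% of all genes. Orc1 was under the floor in both, so its lowest array has no order. The order CD25+ Foxp3-, CD25hi Foxp3+, CD25lo Foxp3+, CD25- Foxp3- from high to low held for 26 members, or 57.8%, and for 5.23% of all genes. In such bulk samples fewer cycling cells and less RNA of these genes per cell cannot be told apart.

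**Figure D1:**
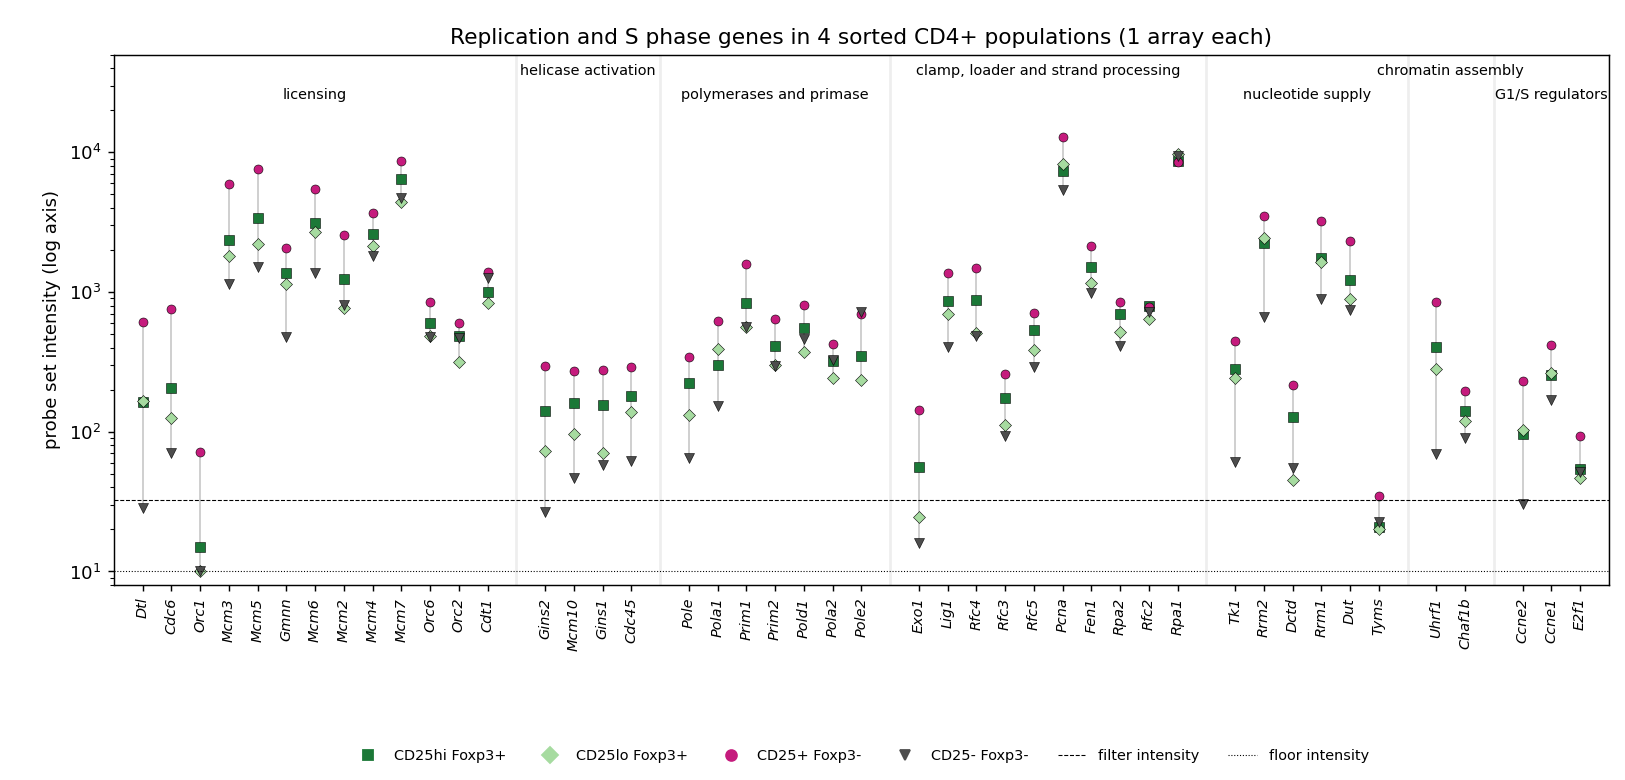
Probe set intensity (log axis) of the 45 measured replication and S phase genes in all 4 populations, grouped by role, 1 point an array, with the filter (32.5) and floor (10.1) as lines. The CD25+ Foxp3- point is the highest for 42 genes, and levels of different genes are not to be compared.

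Against CD25- Foxp3- cells, 34 of the 45 members were at least 2-fold higher in CD25+ Foxp3- cells and 0 were lower. Of all measured genes 12.1% were higher and 6.43% lower by the same rule. The median log2 difference of the members, CD25+ minus CD25- Foxp3- cells here and in all values by role, was 1.63, or 3.11-fold, and that of all genes was -0.01. In CD25hi Foxp3+ cells 18 members were higher and 1 lower, with a median of 0.84, against 7.09% higher and 3.74% lower of all genes and a median of 0.02. In CD25lo Foxp3+ cells 11 were higher and 1 lower, with a median of 0.34, against 9.09% higher and 6.88% lower of all genes and a median of -0.05. The 1 lower member was Pole2 in both. These 3 comparisons share the CD25- Foxp3- array, so their counts are not independent of each other. Over the 39 members at or over the filter on all arrays, 29, 14 and 8 were higher in CD25+ Foxp3-, CD25hi Foxp3+ and CD25lo Foxp3+ cells.

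**Figure D2:**
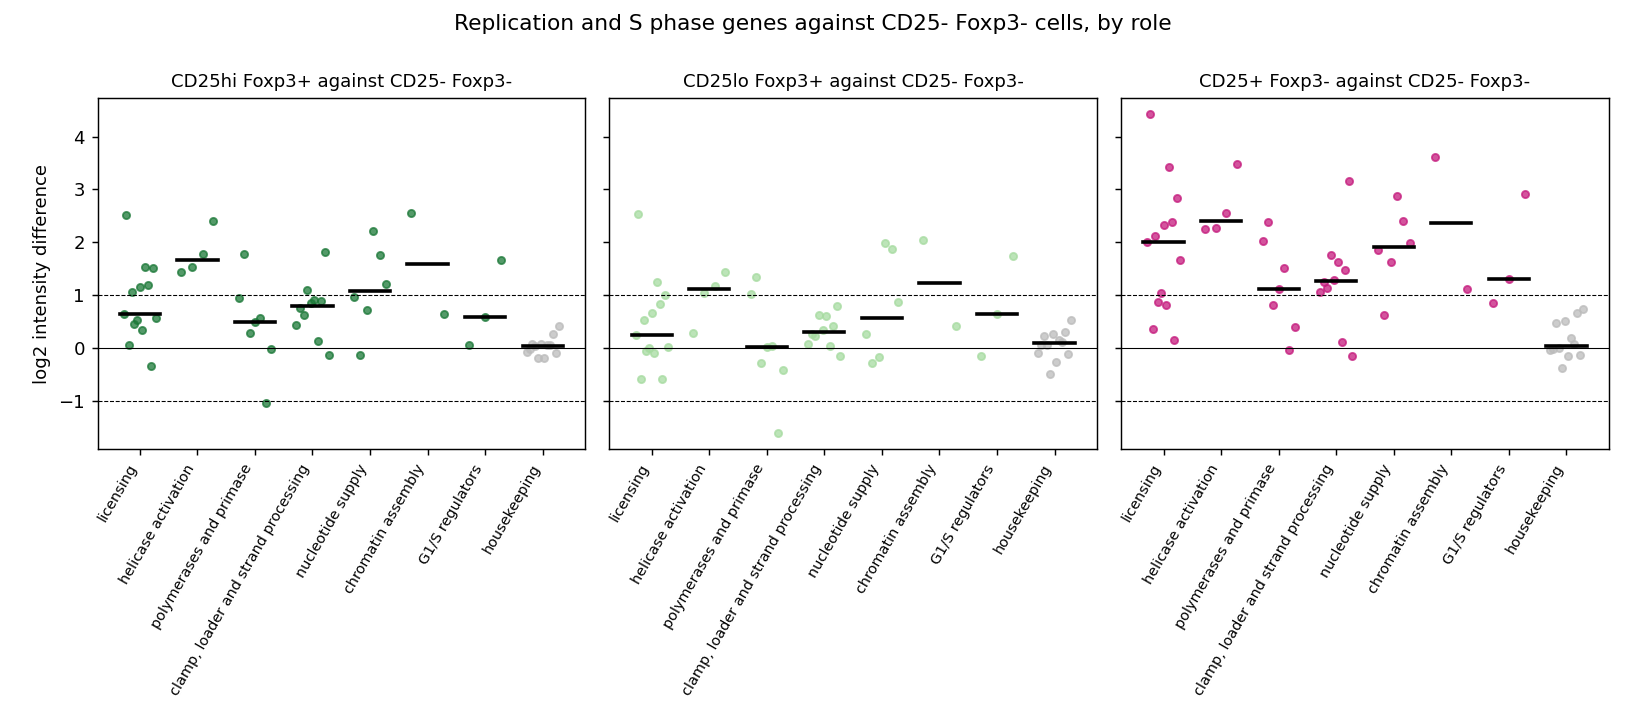
Log2 intensity difference of each measured member against CD25- Foxp3- cells, by role, in CD25hi Foxp3+, CD25lo Foxp3+ and CD25+ Foxp3- cells, with housekeeping genes on the right of each panel, bars at medians and dashed lines at 2-fold. Medians in the CD25+ Foxp3- panel lie between 1.12 for polymerases and primase and 2.41 for helicase activation, with housekeeping genes at 0.03.

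Licensing genes had a median log2 difference of 2.00 between CD25+ and CD25- Foxp3- cells, and 9 of 13 were higher. The widest difference was that of Dtl, the receptor of a ubiquitin ligase that marks Cdt1 for destruction in S phase. It read 163 in CD25hi Foxp3+, 167 in CD25lo Foxp3+ and 613 in CD25+ Foxp3- cells, against 28.6 in CD25- Foxp3- cells. The CD25+ Foxp3- reading stood 21.4-fold over the CD25- Foxp3- one, with both Foxp3+ readings between them. The size depends on the probe set, since 5 measured probe sets of Dtl gave log2 differences from 0.59 to 4.42. One of these was highest in CD25lo Foxp3+ cells, where it read 89.1, and it read 48.4 in CD25hi Foxp3+ cells and 65.4 in the CD25+ Foxp3- population, against 32.6 in CD25- Foxp3- cells.

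Cdc6, the ATPase that loads the Mcm ring with Cdt1, read 204 in CD25hi Foxp3+, 126 in CD25lo Foxp3+ and 756 in CD25+ Foxp3- cells, against 70.8 in CD25- Foxp3- cells. The CD25+ Foxp3- array stood apart by 10.7-fold from CD25- Foxp3- cells and by more than 3-fold from either Foxp3+ array. Orc1, the ATPase of the origin recognition complex, read 14.98 in CD25hi Foxp3+ cells, 72.0 in CD25+ Foxp3- cells and under the floor in the other two populations. Its CD25+ Foxp3- reading was thus at least 7.12-fold over that of CD25- Foxp3- cells, where the floor of 10.1 stands for lower readings. It was measured through the CD25+ Foxp3- array alone. The other listed members of the complex, Orc2 and Orc6, stayed within 2-fold between the Foxp3- populations, while Orc4, a subunit outside the list, read 1099.6 in CD25+ against 358 in CD25- Foxp3- cells. Orc2 read 486, 314 and 597 in CD25hi Foxp3+, CD25lo Foxp3+ and CD25+ Foxp3- cells, against 469 in CD25- Foxp3- cells, and was lowest in CD25lo Foxp3+ cells. Orc6 had a log2 difference of 0.81 between CD25+ and CD25- Foxp3- cells.

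The inhibitor of licensing and its target read differently. Gmnn, which encodes geminin, the inhibitor of Cdt1, read 1368 in CD25hi Foxp3+, 1138 in CD25lo Foxp3+ and 2069 in CD25+ Foxp3- cells, against 477 in CD25- Foxp3- cells. It was at least 2-fold higher in all 3 populations, by log2 differences of 1.52, 1.25 and 2.12. Cdt1 itself read 992 in CD25hi Foxp3+, 836 in CD25lo Foxp3+ and 1402 in CD25+ Foxp3- cells, against 1262 in CD25- Foxp3- cells. On this probe set both Foxp3+ readings of Cdt1 lay below that of CD25- Foxp3- cells, within 2-fold. The other measured probe set of Cdt1 gave a log2 difference of 0.90 between the Foxp3- populations, against 0.15 for the one used. Against CD25- Foxp3- cells it gave 0.18 in CD25hi and -0.20 in CD25lo Foxp3+ cells, so the CD25hi reading lay above there.

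The helicase ring is built from the products of Mcm2 to Mcm7, and all 6 genes were highest in CD25+ Foxp3- cells. Mcm2 read 1247 in CD25hi Foxp3+, 772 in CD25lo Foxp3+ and 2548 in CD25+ Foxp3- cells, against 804 in CD25- Foxp3- cells. Mcm3 read 2365 in CD25hi Foxp3+, 1798 in CD25lo Foxp3+ and 5909 in CD25+ Foxp3- cells, against 1132 in CD25- Foxp3- cells. Mcm5 read 3377 in CD25hi Foxp3+, 2196 in CD25lo Foxp3+ and 7619 in CD25+ Foxp3- cells, against 1514 in CD25- Foxp3- cells. Mcm3 and Mcm5 were over 5-fold higher in CD25+ against CD25- Foxp3- cells. Mcm4 read 2602 in CD25hi Foxp3+, 2124 in CD25lo Foxp3+ and 3688 in CD25+ Foxp3- cells, against 1802 in CD25- Foxp3- cells. Mcm6 read 3123 in CD25hi Foxp3+, 2708 in CD25lo Foxp3+ and 5429 in CD25+ Foxp3- cells, against 1361 in CD25- Foxp3- cells. Mcm7 read 6469.6 in CD25hi Foxp3+, 4390.1 in CD25lo Foxp3+ and 8616 in CD25+ Foxp3- cells, against 4722 in CD25- Foxp3- cells. On the probe sets used, subunits of 1 ring had log2 differences between CD25+ and CD25- Foxp3- cells from 0.87 for Mcm7 to 2.38 for Mcm3.

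Much of that spread within the ring moved with the choice of probe set. The 5 measured probe sets of Mcm3 ran from 0.76 to 3.13, on both sides of 2-fold. The other 3 measured probe sets of Mcm7 gave log2 differences from 1.68 to 1.97, above the 0.87 of the one used. For Mcm4 and Mcm6 the other probe set gave 1.69 and 2.89, against 1.03 and 2.00 for the one used. In CD25lo Foxp3+ cells Mcm2 and Mcm7 read slightly below CD25- Foxp3- cells, with log2 differences of -0.06 and -0.11, while Mcm6 read 0.99 above. All other measured probe sets of Mcm7 were above in CD25lo Foxp3+ cells, by 0.23 to 0.64.

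Helicase activation genes were the group with the highest median, 2.41, and all 4 stood at least 2-fold over CD25- Foxp3- cells in CD25hi Foxp3+ cells and also in CD25+ Foxp3- cells. The chromatin assembly median, over 2 measured genes, was close at 2.36, so these groups cannot be ranked here. Gins2, a subunit of the GINS complex, read 140.4 in CD25hi Foxp3+, 72.4 in CD25lo Foxp3+ and 297 in CD25+ Foxp3- cells, against 26.8 in CD25- Foxp3- cells. Mcm10, which helps to open the helicase, read 160.2 in CD25hi Foxp3+, 96.2 in CD25lo Foxp3+ and 273 in CD25+ Foxp3- cells, against 46.7 in CD25- Foxp3- cells. Cdc45, a further partner of the active helicase, read 179 in CD25hi Foxp3+, 139 in CD25lo Foxp3+ and 292 in CD25+ Foxp3- cells, against 61.8 in CD25- Foxp3- cells. All followed the same order, with CD25+ Foxp3- cells on top and CD25- Foxp3- cells at the bottom. Gins1, another GINS subunit, read 155 in CD25hi Foxp3+ and 70.3 in CD25lo Foxp3+ cells, a difference of more than 2-fold between the Foxp3+ populations.

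Polymerase and primase genes had the lowest median of the role groups, 1.12, and 4 of 7 were higher in CD25+ against CD25- Foxp3- cells. The median of the clamp, loader and strand processing genes was close at 1.26, so this rank is not firm. Pole, the catalytic subunit of the leading-strand polymerase epsilon, read 222 in CD25hi Foxp3+, 132 in CD25lo Foxp3+ and 340.2 in CD25+ Foxp3- cells, against 65.2 in CD25- Foxp3- cells. Pola1, the catalytic subunit of polymerase alpha, read 298 in CD25hi Foxp3+, 393 in CD25lo Foxp3+ and 624 in CD25+ Foxp3- cells, against 154 in CD25- Foxp3- cells. Pola1 differed from most members in that CD25lo Foxp3+ cells read above CD25hi Foxp3+ cells. The primase genes Prim1 and Prim2 were higher by 1.505 and 1.12 on the log2 scale in CD25+ than in CD25- Foxp3- cells.

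The other 3 of this group stayed within 2-fold between the Foxp3- populations. Pola2, the accessory subunit of polymerase alpha, read 319 in CD25hi Foxp3+, 242 in CD25lo Foxp3+ and 426 in CD25+ Foxp3- cells, against 324 in CD25- Foxp3- cells. Pold1, the catalytic subunit of the lagging-strand polymerase delta, read 555 in CD25hi Foxp3+, 375 in CD25lo Foxp3+ and 801 in CD25+ Foxp3- cells, against 459 in CD25- Foxp3- cells. Both were lowest in CD25lo Foxp3+ cells. Pole2, the accessory subunit of polymerase epsilon, read 348 in CD25hi Foxp3+, 234 in CD25lo Foxp3+ and 701 in CD25+ Foxp3- cells, against 718 in CD25- Foxp3- cells. It was the one member with its highest reading in CD25- Foxp3- cells, nearly level with CD25+ Foxp3- cells, and both Foxp3+ arrays read more than 2-fold lower. With each array divided by its median, or with the median over probe sets, no member, Pole2 included, was 2-fold lower in CD25hi Foxp3+ cells against CD25- Foxp3- cells. The other measured probe set of Pole2 was highest in CD25+ Foxp3- cells, where it read 39.6, with 28.5 in the CD25hi and 18.2 in the CD25lo Foxp3+ population, against 30.3 in CD25- Foxp3- cells. That probe set reached the filter on the CD25+ Foxp3- array alone, which fixed its highest array.

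Clamp, loader and strand processing genes had a median of 1.26, and 8 of 10 were higher in CD25+ against CD25- Foxp3- cells. Exo1, an exonuclease of mismatch repair and end resection, read 56.1 in CD25hi Foxp3+, 24.6 in CD25lo Foxp3+ and 143 in CD25+ Foxp3- cells, against 15.9 in CD25- Foxp3- cells. Lig1, the ligase that joins lagging-strand fragments, read 865 in CD25hi Foxp3+, 696 in CD25lo Foxp3+ and 1372 in CD25+ Foxp3- cells, against 405 in CD25- Foxp3- cells. Both followed the order of most members, and for Exo1 the lower pair of readings lay under the filter. Pcna, the sliding clamp, read 7299 in CD25hi Foxp3+, 8262 in CD25lo Foxp3+ and 12827.5 in CD25+ Foxp3- cells, against 5404 in CD25- Foxp3- cells, so that CD25lo stood above CD25hi Foxp3+ cells.

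Of the clamp loader, Rfc3, Rfc4 and Rfc5 had log2 differences of 1.48, 1.62 and 1.28 between CD25+ and CD25- Foxp3- cells. Rfc2, from the same loader, read 794 in CD25hi Foxp3+, 645 in CD25lo Foxp3+ and 781 in CD25+ Foxp3- cells, against 722 in CD25- Foxp3- cells, and its 2 other measured probe sets were highest in CD25+ Foxp3- cells. Rpa1, the large subunit of the protein that coats single-stranded DNA, read 8589.6 in CD25hi Foxp3+, 9701 in CD25lo Foxp3+ and 8526 in CD25+ Foxp3- cells, against 9435 in CD25- Foxp3- cells. For each of Rfc2 and Rpa1, the 4 readings of the probe set used lay within 1.5-fold of each other. The other measured probe set of Rpa1 was highest in CD25+ Foxp3- cells, at 3594. It read 3112 in CD25hi Foxp3+, 3557 in CD25lo Foxp3+ and 3218 in CD25- Foxp3- cells. Rpa2, another subunit of the coating protein, and the flap nuclease gene Fen1 were higher in CD25+ against CD25- Foxp3- cells by 1.05 and 1.13 on the log2 scale, and the other measured probe set of Rpa2 gave 0.83.

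Nucleotide supply genes had a median of 1.92, with 5 of 6 higher in CD25+ against CD25- Foxp3- cells. Tk1, the cytosolic thymidine kinase, read 282 in CD25hi Foxp3+, 240.5 in CD25lo Foxp3+ and 444 in CD25+ Foxp3- cells, against 60.9 in CD25- Foxp3- cells. Rrm2, the S phase subunit of ribonucleotide reductase, read 2229 in CD25hi Foxp3+, 2425 in CD25lo Foxp3+ and 3503 in CD25+ Foxp3- cells, against 661 in CD25- Foxp3- cells. For both genes each of the other 3 populations stood more than 3-fold over CD25- Foxp3- cells. Rrm1, the large subunit of the same enzyme, and Dut, which clears dUTP, had log2 differences of 1.85 and 1.63 between CD25+ and CD25- Foxp3- cells, and the other measured probe set of Dut gave 0.56.

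Dctd, the deaminase that turns dCMP into dUMP, read 127 in CD25hi Foxp3+, 44.9 in CD25lo Foxp3+ and 216 in CD25+ Foxp3- cells, against 54.8 in CD25- Foxp3- cells. Its CD25lo Foxp3+ reading was the lowest, 2.83-fold under that of CD25hi Foxp3+ cells. Tyms, thymidylate synthase, read 20.7 in CD25hi Foxp3+, 20.2 in CD25lo Foxp3+ and 34.8 in CD25+ Foxp3- cells, against 22.7 in CD25- Foxp3- cells. It passed the filter of 32.5 through the CD25+ Foxp3- array alone, and the size of the difference is uncertain so near the floor.

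Chromatin assembly was read from Uhrf1 and Chaf1b. Uhrf1, which brings the maintenance methyltransferase to newly copied DNA, read 406 in CD25hi Foxp3+, 283 in CD25lo Foxp3+ and 846 in CD25+ Foxp3- cells, against 69.0 in CD25- Foxp3- cells. On the probe set used, all 3 stood at least 4-fold over CD25- Foxp3- cells. The other measured probe set of Uhrf1 gave a log2 difference of 2.94, against 3.62, between the Foxp3- populations. Against CD25- Foxp3- cells that probe set gave 1.85 in CD25hi Foxp3+ cells and only 0.82, under 2-fold, in CD25lo Foxp3+ cells. Chaf1b, a subunit of the histone chaperone CAF-1, read 140.2 in CD25hi Foxp3+, 120.2 in CD25lo Foxp3+ and 195 in CD25+ Foxp3- cells, against 90.2 in CD25- Foxp3- cells.

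The G1/S regulators were read from both cyclin E genes, whose kinase starts S phase, and from E2f1. Ccne2 read 96.4 in CD25hi Foxp3+, 103 in CD25lo Foxp3+ and 231 in CD25+ Foxp3- cells, against 30.5 in CD25- Foxp3- cells. Ccne1 read 253 in CD25hi Foxp3+, 264 in CD25lo Foxp3+ and 415 in CD25+ Foxp3- cells, against 169 in CD25- Foxp3- cells. For both, the Foxp3+ populations lay close together between the Foxp3- populations. The other measured probe set of Ccne1 was instead highest in CD25hi Foxp3+ cells, at 145.5, with 84.1 in CD25lo Foxp3+ and 134 in CD25+ Foxp3- cells, against 84.6 in CD25- Foxp3- cells. E2f1, an activator of many of these genes, read 54.2 in CD25hi Foxp3+, 46.9 in CD25lo Foxp3+ and 93.6 in CD25+ Foxp3- cells, against 51.9 in CD25- Foxp3- cells. Its other measured probe set gave a log2 difference of 2.45 between the Foxp3- populations, against 0.85 for the one used.

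Against CD25+ Foxp3- cells, which carry a similar reading of Il2ra as CD25lo Foxp3+ cells, nearly all members read below in both Foxp3+ populations, many within 2-fold. In CD25hi Foxp3+ cells 12 were at least 2-fold lower and none higher, with a median log2 difference of -0.75, where 6.84% of all genes were lower and 4.82% higher. In CD25lo Foxp3+ cells 23 were lower and none higher, with a median of -1.004, where 9.04% of all genes were lower and 5.17% higher. The direction was shared by 43 of 45 members in CD25hi and 44 of 45 in CD25lo Foxp3+ cells. Over the 39 members at or over the filter on all arrays, 7 and 18 were lower. With the arrays centred on the housekeeping genes, a setting chosen after the data were seen, 7 of 45 were lower in CD25hi Foxp3+ cells. Of all 9622 measured genes 511 were lower by it. These comparisons share the CD25+ Foxp3- array.

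The lower members came from all 7 role groups. In CD25lo Foxp3+ cells they were 7 of 13 licensing genes, all 4 helicase activation genes, 5 of 7 polymerase and primase genes, 3 of 10 clamp genes, 2 of 6 nucleotide supply genes, and 1 each of the chromatin and G1/S genes. The group medians were -1.004, -1.74, -1.09, -0.89, -0.94, -1.14 and -0.996 in that order. Among members measured through more than the CD25+ Foxp3- array, the widest differences were those of Cdc6 at -2.59 and Exo1 at -2.54. In CD25hi Foxp3+ cells 6 of 13 licensing genes were lower, among them Dtl at -1.91 and Cdc6 at -1.89, and none of the 6 nucleotide supply genes was.

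Between the Foxp3+ populations, 3 members were at least 2-fold higher in CD25hi than in CD25lo cells and none was lower, where 3.21% of all genes were higher and 2.5% lower. The 3 were Dctd with a log2 difference of 1.499, Exo1 with 1.19 and Gins1 with 1.14. With the dimmest measured probe set of each gene 5 members were higher. The median over members was 0.40, against 0.05 over all genes, and 38 of 45 read above. The 7 that read below were Dtl, Pola1, Pcna, Rpa1, Rrm2, Ccne1 and Ccne2, the lowest being Pola1 at -0.40. The side depended on the probe set for some genes. Both other measured probe sets of Rrm2, at 0.15 and 0.085, that of Ccne1, at 0.79, and some of Dtl read above. Among the 38, the other measured probe sets of Mcm4, Mcm6 and Rrm1 read below, at -0.23, -0.29 and -0.23.

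Genes of mitosis, most of which act after replication is done, were read beside them. Of 25 measured of 26 listed, 21 stood at least 2-fold over CD25- Foxp3- cells in CD25hi Foxp3+, 23 in CD25lo Foxp3+ and 22 in CD25+ Foxp3- cells, and 0 stood as far below. The replication medians in these comparisons were 0.84, 0.34 and 1.63, and the mitosis medians 1.59, 1.99 and 2.00. CD25lo Foxp3+ cells gave the highest reading for 14 and CD25+ Foxp3- cells for 11 of the mitosis genes. Of all measured genes 21.5% were highest in CD25lo Foxp3+ and 30.1% in CD25+ Foxp3- cells. Against CD25+ Foxp3- cells the mitosis median in CD25lo Foxp3+ cells was 0.03 with no gene 2-fold apart, and against CD25lo it was -0.35 in CD25hi Foxp3+ cells. With 1 array a population, the difference between the lists was not tested.

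The mitosis genes farthest apart between CD25lo Foxp3+ and CD25+ Foxp3- cells went both ways. Prc1, a microtubule bundler of the midzone, read 226 in CD25hi Foxp3+, 301 in CD25lo Foxp3+ and 183 in CD25+ Foxp3- cells, against 81.5 in CD25- Foxp3- cells. Cenpf, a kinetochore protein, read 225 in CD25hi Foxp3+, 305 in CD25lo Foxp3+ and 222 in CD25+ Foxp3- cells, against 65.7 in CD25- Foxp3- cells. Bub1, a kinase of the spindle checkpoint, read 142 in CD25hi Foxp3+, 213 in CD25lo Foxp3+ and 301 in CD25+ Foxp3- cells, against 36.3 in CD25- Foxp3- cells. Prc1 and Cenpf were highest in CD25lo Foxp3+ cells and Bub1 in CD25+ Foxp3- cells, each by less than 2-fold between these populations.

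**Figure D3:**
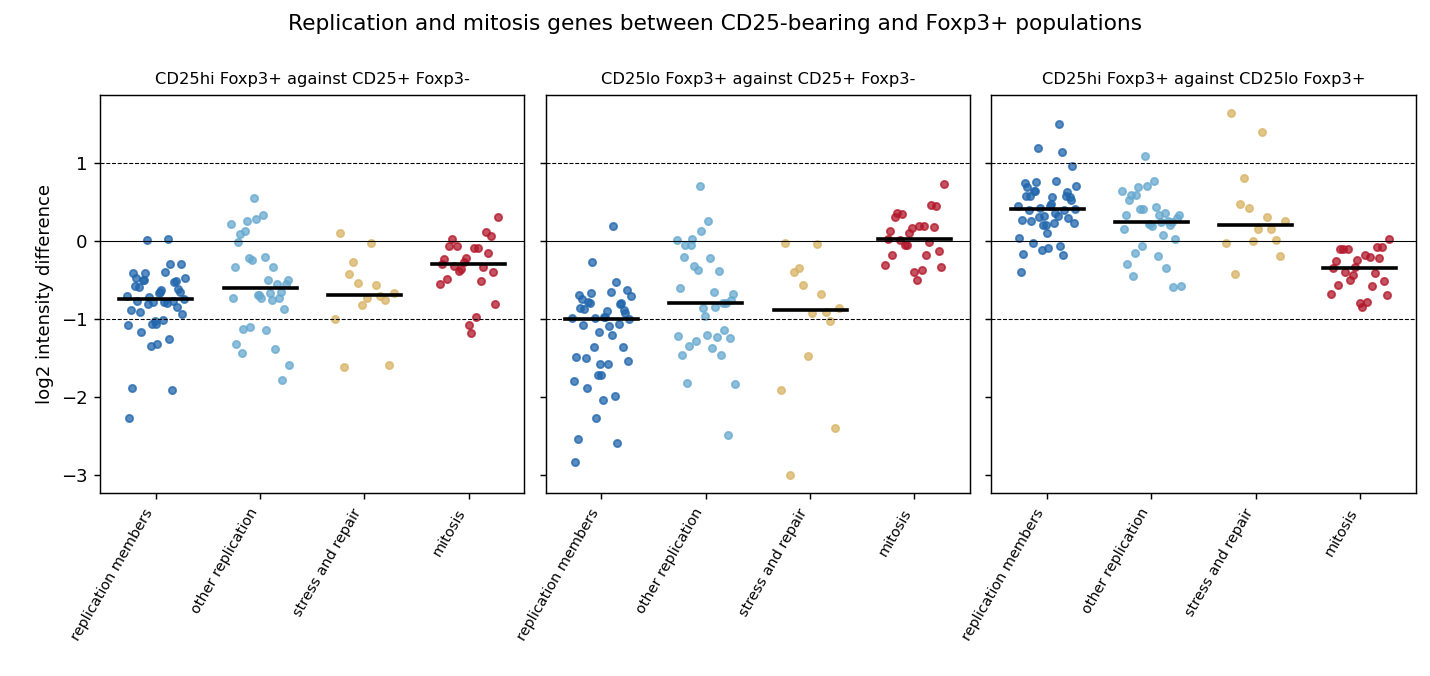
Log2 intensity difference of single genes in the 45 replication members, 34 other replication genes, 14 replication stress and repair genes and 25 mitosis genes, for CD25hi and CD25lo Foxp3+ against CD25+ Foxp3- cells and for CD25hi against CD25lo Foxp3+ cells, bars at medians. In the middle panel the replication members centre at -1.004 and the mitosis genes at 0.03, and in the right panel the medians are 0.40 and -0.35.

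Further replication genes outside the list followed its order in part. Of 34 measured of 35 listed, 15 passed 2-fold upwards in CD25+ against CD25- Foxp3- cells and 0 downwards, and the median log2 difference was 0.84. Clspn, whose product claspin carries the checkpoint signal at forks, read 97.0 in CD25hi Foxp3+, 119 in CD25lo Foxp3+ and 208 in CD25+ Foxp3- cells, against 17.7 in CD25- Foxp3- cells. Dscc1, of an alternative clamp loader, read 118 in CD25hi Foxp3+, 72.3 in CD25lo Foxp3+ and 406.5 in CD25+ Foxp3- cells, against 54.4 in CD25- Foxp3- cells. Both stood over 7-fold higher in CD25+ against CD25- Foxp3- cells. Dna2, a nuclease and helicase, and Mcm8, a relative of the ring genes, differed by 2.77 and 2.23 on the log2 scale between the same populations. In CD25lo Foxp3+ cells 13 of the 34 were lower than in CD25+ Foxp3- cells and 0 were higher.

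Replication stress and repair genes, 14 of 17 measured, included 9 that were higher in CD25+ against CD25- Foxp3- cells and 0 that were lower, and their median was 1.17. The checkpoint kinase gene Chek1 read 219.6 in CD25hi Foxp3+, 126 in CD25lo Foxp3+ and 659.9 in CD25+ Foxp3- cells, against 68.6 in CD25- Foxp3- cells. Rad54l, a recombination motor, Ung, which removes uracil from DNA, and Brca1 had log2 differences of 3.10, 2.35 and 2.04. Of other chromatin and histone genes, 10 of 12 measured, 5 were higher and none lower, among them Hells, a remodelling helicase, at 378 in CD25hi Foxp3+, 391 in CD25lo Foxp3+ and 1799 in CD25+ Foxp3- cells, against 135 in CD25- Foxp3- cells. Slbp, which binds histone messages, Asf1b, a histone chaperone, and Atad2 differed by 2.10, 1.40 and 1.38.

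Of the E2F and pocket protein genes, 16 of 17 measured, 6 were higher in CD25+ against CD25- Foxp3- cells and 0 lower. The activator E2f3 read 57.8 in CD25hi Foxp3+, 61.2 in CD25lo Foxp3+ and 124 in CD25+ Foxp3- cells, against 17.2 in CD25- Foxp3- cells. The repressor E2f8 and the partner Tfdp1 differed by 2.12 and 1.95 on the log2 scale. The repressor E2f7 differed by at least 2.06, since it was under the floor in CD25- Foxp3- cells. Of the G1 cyclins, kinases and inhibitors, 10 of 15 measured, 3 were higher and 1 lower. The higher ones were the kinase Cdk6 by 1.63, the kinase inhibitor Cdkn2c by 1.14 and the phosphatase Cdc25a by 1.12, and the lower one was the inhibitor Cdkn2d at -1.08.

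Of other nucleotide supply genes, 17 of 19 measured, 4 were higher and 1 lower in CD25+ against CD25- Foxp3- cells, with a median of 0.31. In CD25lo Foxp3+ against CD25- Foxp3- cells 1 was higher and 4 lower, with a median of -0.48. In CD25lo Foxp3+ against CD25+ Foxp3- cells 1 was higher and 8 lower, with a median of -0.97. Shmt1, which feeds carbon units into thymidylate synthesis, read 257 in CD25hi Foxp3+, 50.8 in CD25lo Foxp3+ and 665 in CD25+ Foxp3- cells, against 63.6 in CD25- Foxp3- cells. Its readings in CD25hi Foxp3+ and CD25+ Foxp3- cells stood at least 4-fold over those of the other two populations. Mthfd1, of the same folate cycle, and the pyrimidine synthesis genes Cad and Ctps had log2 differences of -2.23, -2.02 and -1.87 between CD25lo Foxp3+ and CD25+ Foxp3- cells. The 1 gene higher in that comparison, named after its values were seen, was Samhd1, which degrades deoxynucleotides, at 1.63.

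Probe sets of 1 gene, which can read different transcripts of it, give a view of how far a single reading can be trusted. The 45 members had 103 probe sets, of which 83 were measured. Of the 83, 78 were highest in CD25+ Foxp3- cells, 59 were at least 2-fold higher there than in CD25- Foxp3- cells and 2 were lower. Those of Orc1 and Tyms, and some of Exo1, Dtl, Mcm3 and Pole2, reached the filter on the CD25+ Foxp3- array alone. This fixed their place among the 78. Of all measured genes, 30.1% were highest in CD25+ Foxp3- cells and 12.1% at least 2-fold higher. The shares over all measured probe sets were not computed. Among 27 members with at least 2 measured probe sets, 20 had all of them on the same side of 2-fold and 22 had all of them highest on the same array. The log2 difference spread over a median of 0.58 within a gene and at most 3.84, in Dtl. Members that differ by less than this spread cannot be ranked here.

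**Figure D4:**
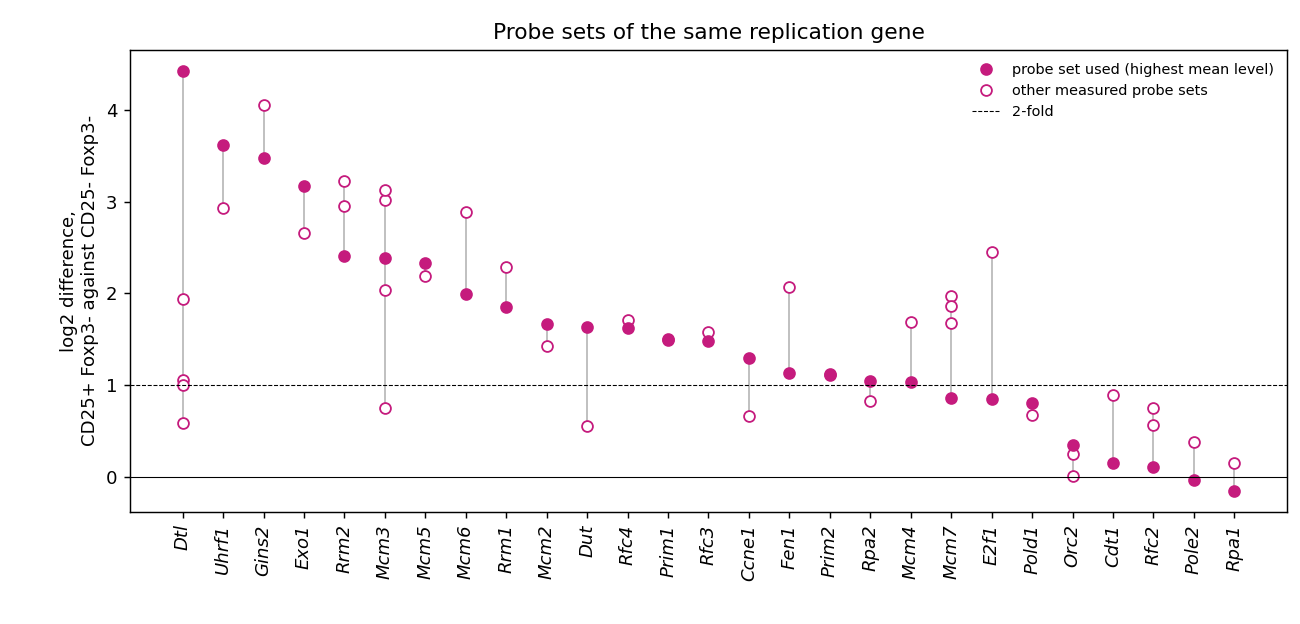
Log2 difference of CD25+ against CD25- Foxp3- cells for every measured probe set of the 27 members with at least 2, with the probe set used filled and 2-fold dashed. Points of a gene lie on the same side of 2-fold for 20 genes, and the widest gap is that of Dtl, from 0.59 to 4.42.

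The members with E2F letters in their promoter window had a median log2 difference of 2.01 between CD25+ and CD25- Foxp3- cells, over 14 genes from -0.03 to 4.42. The 22 measured members with a window and no such letters had a median of 1.29, from -0.15 to 2.87. These ranges overlap over most of their length, and Pole2 and Cdt1, which hold the letters, were among the members that differed least. The comparison was not tested.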

How the data were processed

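The authors deposited an intensity for every probe set of every array. Its linear scale was judged from its range. The authors' probe summary, background step and normalization are not given in the sources used here. Among 45101 probe sets were 64 controls, which were dropped, and 34945 with exactly 1 gene in the 2016 platform annotation, while 932 had several and 9160 none listed. All 45 members with a probe set were matched by Entrez identifier to RefSeq, GRCm38.p6.

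Arrays were kept on the deposited scale, since their medians lay within 10% of each other. The 40th percentile, 10.1, served as the floor for lower values. A probe set was measured where at least 1 array read at or over the 60th percentile, 32.5, and a gene was read from its measured probe set with the highest mean log2 intensity. A further probe set, annotated to Tyms and its pseudogene, was left out by the rule of 1 gene. Where the lower array is at the floor, a fold is a bound, written as at least.

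The members and lists were chosen with earlier results of these data known. Full values are given for the 2 members of each role with the largest and the 1 with the smallest difference between CD25+ and CD25- Foxp3- cells, for Mcm2 to Mcm7, and for members whose order of arrays departed from that of most. From each other list up to 4 genes with the largest difference in the comparison described are named. Eomes, Ncr1, Cd22, Blk, Adgre1, Orc1, Orc4, Gmnn and Gins1 were named or given in full after their values were seen. The alternatives covered scaling, floor, filter, probe set choice and size rule. The code of the counting rule was checked on simulated arrays with large known differences and little noise. That check says nothing about the reported counts, which rest on single arrays. Python 3.11.15, numpy 2.4.6, pandas 2.3.3 and matplotlib 3.10.9 were used.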

Additional observations from a re-analysis of the deposited data

Results flagged for a closer look

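On the probe sets used, 5 members read below CD25+ Foxp3- cells in CD25hi Foxp3+ cells and above CD25- Foxp3- cells in CD25lo Foxp3+ cells, each by at least 2-fold. The first and second log2 differences were -1.91 and 2.54 for Dtl, -1.06 and 2.04 for Uhrf1, -1.26 and 1.75 for Ccne2, -1.08 and 1.44 for Gins2, and -1.07 and 1.35 for Pola1. The first minus the second came to -4.45 for Dtl, -3.10 for Uhrf1, -3.01 for Ccne2, -2.52 for Gins2 and -2.42 for Pola1. Which members met the rule depended on the probe set. The other measured probe set of Uhrf1 gave -1.08 and 0.82, short of 2-fold in the second pair. Among the other measured probe sets of Dtl, that with -1.62 and 1.04 met the rule and the rest did not. Other probe sets of Mcm3 and Mcm6, genes not among the 5, met it, that of Mcm6 at -1.54 and 1.64. Each value rests on 4 single arrays, and the difference was not tested. Neither pair was matched for CD25, since Il2ra read 1562 against 283 in the first and 288 against 22.3 in the second. Between CD25lo Foxp3+ and CD25+ Foxp3- cells, with Il2ra at 288 and 283, all 5 members read lower in the Foxp3+ cells. The log2 differences there were -1.88 for Dtl, -1.58 for Uhrf1, -1.17 for Ccne2, -2.04 for Gins2 and -0.67 for Pola1. Without the size threshold, 32 of 45 members read below in the first pair and above in the second, as did 2300 of 9622 measured genes. How many of all genes met the 2-fold rule in both pairs was not computed, so the 5 have no such reference.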

How the results depend on the processing

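Across 12 alternatives to the settings, 20 counts and medians of the members gave 232 values. None of the medians changed sign, and a count cannot change sign. In all, 220 values stayed within 1.5-fold of the one reported, among them counts that remained at 0. The median of the members in CD25+ against CD25- Foxp3- cells lay between 1.48 and 1.71. Settings that measured all 45 members had 41 to 44 of them highest in CD25+ Foxp3- cells. Settings that measured fewer had 40 of 43 or 37 of 40. Members 2-fold lower in CD25hi Foxp3+ cells against CD25+ Foxp3- cells were 7 with the filter met in all 4 arrays, which tests fewer genes, and 7 with arrays centred on housekeeping genes, against 12. The housekeeping centring was chosen after seeing the data. With it the median of all genes for CD25+ against CD25- Foxp3- cells was -0.17, against -0.01, and 926 genes were higher and 926 lower, against 1161 and 619. Its medians of all genes were 0.16 for CD25hi Foxp3+ against CD25+ Foxp3- cells and -0.11 for CD25lo Foxp3+ against CD25- Foxp3- cells. Members 2-fold lower in CD25hi Foxp3+ cells against CD25- Foxp3- cells were 0 with arrays divided by their medians, with the median over probe sets and with the dimmest probe set, against 1. With the dimmest probe set 5 members were higher in CD25hi than in CD25lo Foxp3+ cells, against 3; the cause was not tested. A 1.5-fold rule, wider by construction, gave 31 lower in CD25hi and 42 lower in CD25lo Foxp3+ than in CD25+ Foxp3- cells. Of all 9622 measured genes it gave 1492 and 1809. By it 28 members were higher in CD25hi Foxp3+, and 19 higher and 2 lower in CD25lo Foxp3+ than in CD25- Foxp3- cells, and 12 higher in CD25hi than in CD25lo Foxp3+ cells. The same counts over the 9622 genes were 1402, 1679 and 1685, and 1057. No paired analysis was possible because each population has 1 array, and for the same reason no array could be left out. The number of arrays limits the precision of every value.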
